A study of Mus musculus with 3 samples.

Results

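The miR-148 and miR-152 family was followed through hepatic ischemia and reperfusion in 3 small RNA libraries from mouse liver. Members were all listed mature microRNAs whose name starts with miR-148a, miR-148b or miR-152, on both arms of the hairpin. This gave 6 of the 1908 listed microRNAs, namely the 3p and the 5p arm of each of 3 hairpins, and all 6 had reads in every library. The rule used names only and no measured value, but the members were chosen with earlier results of these data known.

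The livers came from male C57BL/6J mice, an inbred strain, aged 8 to 10 weeks. The Sham library came from mice that had a laparotomy without clamping, the WI library from mice whose vessels to the left and median lobes were clamped for 90 min (warm ischemia), and the IR library from mice in which the same clamping was followed by 2 h of reperfusion. Each group held 6 mice, but each group was sequenced as 1 library, and how many mice entered a library is not given in the sources used here. Sham livers were taken after a wait equal to the clamping, so IR livers were taken later after surgery than the others, and reperfusion and time since surgery cannot be told apart. In bulk tissue, fewer cells of a type and less RNA per cell cannot be told apart either.

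MicroRNAs guide silencing complexes to messenger RNAs, mainly through base pairing of the seed, bases 2 to 8 counted from the 5′ end, and microRNAs with the same seed have largely overlapping sets of possible targets. Each hairpin precursor is cut into a duplex, of which usually 1 strand, the major arm, is kept and the other, the minor arm, is mostly degraded. MiR-148a is among the most abundant microRNAs of hepatocytes and is known as a repressor of the low-density lipoprotein receptor and of the cholesterol exporter ABCA1. The family is also known for repression of the DNA methyltransferase DNMT1.

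The mature sequences are shown because the seed defines the family. They were taken from RefSeq (GRCm38.p6), which held an entry for 6 of 6 members. Capitals mark the seed, and the prefix mmu, for mouse, is left out below.
mmu-miR-148a-3p: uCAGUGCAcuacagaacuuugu
mmu-miR-148b-3p: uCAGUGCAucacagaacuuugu
mmu-miR-152-3p: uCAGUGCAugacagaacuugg
mmu-miR-148a-5p: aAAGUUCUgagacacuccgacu
mmu-miR-148b-5p: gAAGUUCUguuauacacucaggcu
mmu-miR-152-5p: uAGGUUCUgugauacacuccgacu

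The 3 3p arms had the seed CAGUGCA, and no other of the 1738 mature entries of the RefSeq table had it. A messenger RNA site that pairs with this seed reads TGCACTG in DNA letters. Counted from the 5′ end, miR-148a-3p and miR-148b-3p differed at 2 of 22 positions, C9U and U10C (the base of the first-named microRNA stands first). MiR-148b-3p and miR-152-3p differed at 2 of the 21 positions that both have, C10G and U20G. MiR-148a-3p and miR-152-3p differed at 3, C9U, U10G and U20G. Since the alignment allowed 1 mismatch, a read with a single error at one of these positions may fit a pair of members equally well. How many reads were shared in this way was not tested.

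The 5p arms formed a second seed group. MiR-148a-5p and miR-148b-5p shared the seed AAGUUCU, which no further mature entry had, although their other bases were less alike, with 13 of 22 positions identical. MiR-152-5p stood apart, since it differs from miR-148a-5p at A3G inside the seed, and its seed AGGUUCU was found in no other entry. In miR-148a and miR-148b the reverse complement of the 5p seed, AGAACUU, is present at positions 13 to 19 of the 3p arm. In miR-152 the reverse complement of its own 5p seed, AGAACCU, is not present in the 3p arm.

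The hairpins are shown to place the arms, which are in capitals, the 5p arm first.
mir-148a: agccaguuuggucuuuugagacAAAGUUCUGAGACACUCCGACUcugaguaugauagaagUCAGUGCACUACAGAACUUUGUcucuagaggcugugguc
mir-148b: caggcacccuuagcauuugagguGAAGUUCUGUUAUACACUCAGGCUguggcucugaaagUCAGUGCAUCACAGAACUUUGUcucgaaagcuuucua
mir-152: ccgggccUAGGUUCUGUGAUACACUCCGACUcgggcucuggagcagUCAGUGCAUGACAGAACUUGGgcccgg

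The RefSeq hairpins were identical to the NCBIM37 (mm9) genome at the positions annotated by GENCODE. Mir148a lies on the minus strand of chromosome 6 from 51219811 to 51219909 (NCBIM37) and overlaps no other annotated gene. Mir148b lies on the plus strand of chromosome 15 from 103115556 to 103115652, in an intron of Copz1 on the same strand. Mir152 lies on the plus strand of chromosome 11 from 96711707 to 96711779, in an intron of Copz2, also on the same strand. Copz1 and Copz2 are paralogues that encode zeta subunits of the coatomer, the coat of vesicles that move between the Golgi and the endoplasmic reticulum.

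The libraries held 3784539 (IR) to 5064014 (WI) microRNA reads. Counts were scaled with the trimmed mean of M-values (TMM) and are given as counts per 1000000 scaled reads (CPM), in which 3 reads correspond to 0.617 to 0.785 CPM. Of a list of hepatocyte microRNAs (3 of 3 matched), miR-122-5p stood at 15960, 18999 and 15364 CPM in the Sham, WI and IR libraries. In the same list miR-192-5p had 243175, 258042 and 236770 CPM, and miR-194-5p had 7131, 6908 and 6761. The level of miR-122-5p was below that of miR-143-3p, a stromal microRNA with 38597, 42013 and 34215 CPM in the same order. Some microRNAs of other cells moved with the groups. The summed level of the leukocyte list was 249, 230 and 346 CPM in the same order, with 3 of 5 listed names matched in the files. In this list miR-223-3p had 110, 109 and 236 CPM, while miR-150-5p (119, 104 and 95.4) and miR-155-5p (20.2, 16.6 and 14.4) were lowest in IR. The other 2 names appear in the files without the letter a, and by these names, looked up after the values were seen, miR-142-5p had 2735, 2672 and 2342 CPM and miR-142-3p had 110, 152.1 and 119. For red blood cells, with 2 of 4 names matched, the sum was 1117, 1066 and 1961 CPM, and miR-486-5p, listed without a letter and looked up in the same way, had 3809, 3585 and 6863 CPM. For skeletal muscle, with 3 of 3 matched, the sum was 6.82, 23.8 and 75.1 CPM, nearly all of it miR-133a-3p (27, 115 and 280 reads). In that list miR-1a-3p had 0, 1 and 6 reads and miR-206-3p had 0, 0 and 1. The endothelial list (2 of 2 matched) had 19267, 22783 and 17568 CPM, most of it miR-126a-5p, while miR-126a-3p had 2956, 2951 and 2985. The stromal list (4 of 4) had 39455, 42874 and 35007 CPM, most of it miR-143-3p. In that list miR-199a-3p had 685, 696 and 620 CPM, miR-145a-5p had 133, 130 and 126, and miR-214-3p had 40.2, 34.7 and 46.5. Of the pancreas list (3 of 3 matched), with 11.4, 17.9 and 9.41 CPM, miR-216a-5p had no read in any library. The part of these cells in the results on the family was not tested.

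The levels of the 6 members were compared first. In the Sham, WI and IR libraries, miR-148a-3p had 295509, 409108 and 240285 reads, which were 74623, 84092 and 62835 CPM. It ranked 3 among all microRNAs in every library and took 7.69% (Sham), 8.08% (WI) and 6.35% (IR) of all microRNA reads, with 95% Wilson intervals of 7.66 to 7.71, 8.06 to 8.10 and 6.32 to 6.37. In Sham its neighbours in rank were miR-22-3p with 182590 CPM and miR-30a-5p with 49749 CPM.

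The reads of miR-148b-3p numbered 4889, 6100 and 4821 in this order, or 1235, 1254 and 1261 CPM. It ranked 47, 47 and 48, beside let-7b-5p (1235 CPM in Sham) and let-7d-5p (1231 CPM in Sham). MiR-152-3p had 637, 635 and 477 reads in the same order, or 161, 131 and 125 CPM. The same seed was therefore present at 3 scales of read counts, with miR-148a-3p above miR-148b-3p and miR-148b-3p above miR-152-3p in all 3 libraries. Reads of different sequences were not calibrated to numbers of molecules, so ranks and ratios between members or arms are those of reads.

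The 5p arms were lower. MiR-148a-5p had 2094 (Sham), 3509 (WI) and 1799 (IR) reads, or 529, 721 and 470 CPM, and so exceeded miR-152-3p although it is the minor arm of its hairpin. MiR-152-5p had 230, 324 and 206 reads (58.1, 66.6 and 53.9 CPM), and miR-148b-5p had 157, 202 and 122 reads (39.6, 41.5 and 31.9 CPM). The 5p arms of miR-152 and miR-148b were thus in the opposite order to their 3p arms.

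**Figure D1:**
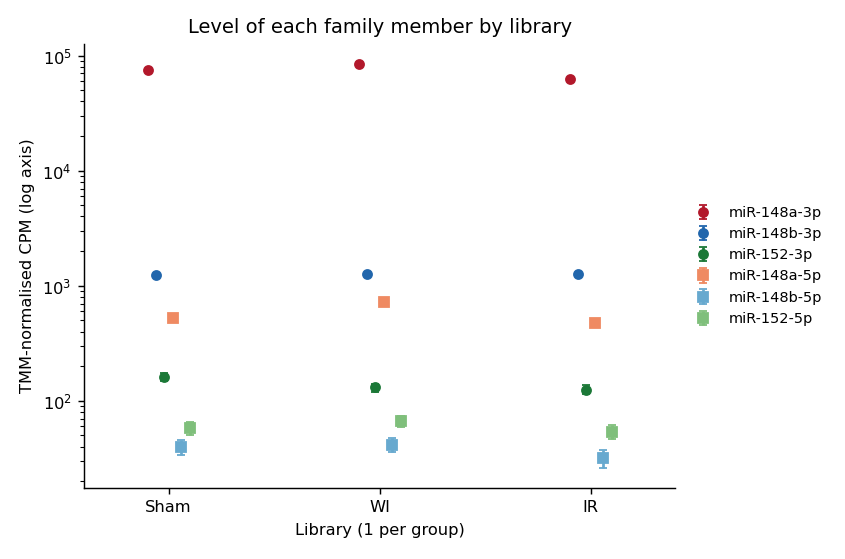
TMM-normalised level of each member (CPM, log axis) in the Sham, WI and IR library, 1 library per group. Circles are 3p arms, squares are 5p arms, and bars are 95% counting intervals. MiR-148a-3p lies between 62835 and 84092 CPM, and the next member, miR-148b-3p, lies between 1235 and 1261 CPM.

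Ischemia alone was examined by comparison of the WI with the Sham library. Both arms of miR-148a were higher in WI, miR-152-3p was lower, and miR-148b-3p was near 0 with TMM scaling. The log2 fold change was 0.17 for miR-148a-3p (SE 0.0035 from the read counts) and 0.45 for miR-148a-5p (SE 0.04, Fisher's exact p = 6.57e-30, adjusted over all tested microRNAs 2.06e-28). It was -0.30 for miR-152-3p (SE 0.081, Fisher's exact p = 0.000197, adjusted 0.0022). For miR-148b-3p it was 0.02, with a 95% counting interval from -0.03 to 0.08 (Fisher's exact p = 0.42). MiR-152-5p (0.20, Fisher's exact p = 0.114) and miR-148b-5p (0.07, Fisher's exact p = 0.672) did not differ beyond counting error.

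A microRNA was called when the fold change exceeded 1.5 and Fisher's exact p was under 0.01. None of the 6 members was called in WI vs Sham, where 1.92% of 782 tested microRNAs were called. A p under 0.01 without regard to fold was found for 3 of 6 members and for 12.3% of all tested. The shares over all tested include many microRNAs with too few reads to reach such a p. The share with p under 0.01 at the depth of the members was not computed. The median log2 fold change was 0.12 over the members and 0.05 over all tested. MiR-148a-5p had a higher value than 93.5% of the 246 microRNAs that had 100 or more reads in the WI and Sham libraries together, and miR-152-3p had a higher value than 8.54% of them.

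Reperfusion was compared with ischemia alone. Both arms of miR-148a were lower in IR, with the lowest values in the family, and miR-148b-3p was again near 0 with TMM scaling. The 95% counting interval of miR-148b-5p, -0.70 to -0.06, covers the values of both arms of miR-148a, so this order is not beyond counting error. MiR-148a-5p had 721 CPM in the WI and 470 in the IR library. This was a log2 difference of -0.62 (SE 0.042, Fisher's exact p = 4.69e-51, adjusted 1.16e-49) or 1.53-fold lower, and it was called. MiR-148a-3p, at -0.42 on the log2 scale (SE 0.0037) or 1.34-fold lower, did not reach the fold threshold. Its Fisher's exact p was too small for double precision. MiR-148b-3p had 0.01 (95% counting interval -0.05 to 0.06, Fisher's exact p = 0.78).

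The 3 remaining members gave no difference that passed the p threshold. MiR-148b-5p had a log2 fold change of -0.38 (Fisher's exact p = 0.0217, adjusted 0.106), miR-152-5p had -0.31 (Fisher's exact p = 0.0181, adjusted 0.0897), and miR-152-3p had -0.07 (Fisher's exact p = 0.468). With 1 of 6 members called, the background was 9.25% of 789 tested microRNAs called in either direction and 3.04% called lower. These shares include many microRNAs with few reads, which could hardly reach p under 0.01. Of the 243 with at least 100 reads over both libraries, as all members had, 49 were called, 17 of them lower. The background at the depth of the members was therefore higher. A p under 0.01 was found for 2 of 6 members and for 18.9% of all tested. This last share also includes the microRNAs with few reads, and it was not computed at the depth of the members. The median log2 fold change was -0.34 over the members and -0.01 over all tested. Of the 243 microRNAs with at least 100 reads, 12.3% had a lower value than miR-148a-3p and 5.76% had a lower value than miR-148a-5p. The call of miR-148a-5p stood close to the fold threshold and was lost with library totals as the scaling (-0.54). It was also lost with an assumed coefficient of variation of 0.2 between libraries (edgeR's exact test, p = 0.137).

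The Sham and IR libraries were compared for the net difference, in which both arms of miR-148a and miR-152-3p were lower in IR. MiR-148a-3p had a log2 fold change of -0.25 (SE 0.004), and miR-148a-5p had -0.17 (SE 0.046, Fisher's exact p = 0.000272, adjusted 0.00234). MiR-152-3p had -0.37 (SE 0.087, Fisher's exact p = 2.66e-05, adjusted 0.000251), from 161 to 125 CPM. MiR-148b-3p had 0.03 (95% counting interval -0.03 to 0.09, Fisher's exact p = 0.305). The 5p arms of miR-148b (-0.31, Fisher's exact p = 0.0726) and of miR-152 (-0.11, Fisher's exact p = 0.444) did not differ beyond counting error. None of the 6 members was called, against 7.11% of 774 tested microRNAs, many of which had too few reads to reach p under 0.01. Of the 237 with at least 100 reads over both libraries, as all members had, 39 were called. A p under 0.01 was found for 3 of 6 members and for 16.0% of all tested. This last share also includes the microRNAs with few reads, and it was not computed at the depth of the members. The median was -0.21 over the members and 0.04 over all tested.

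**Figure D2:**
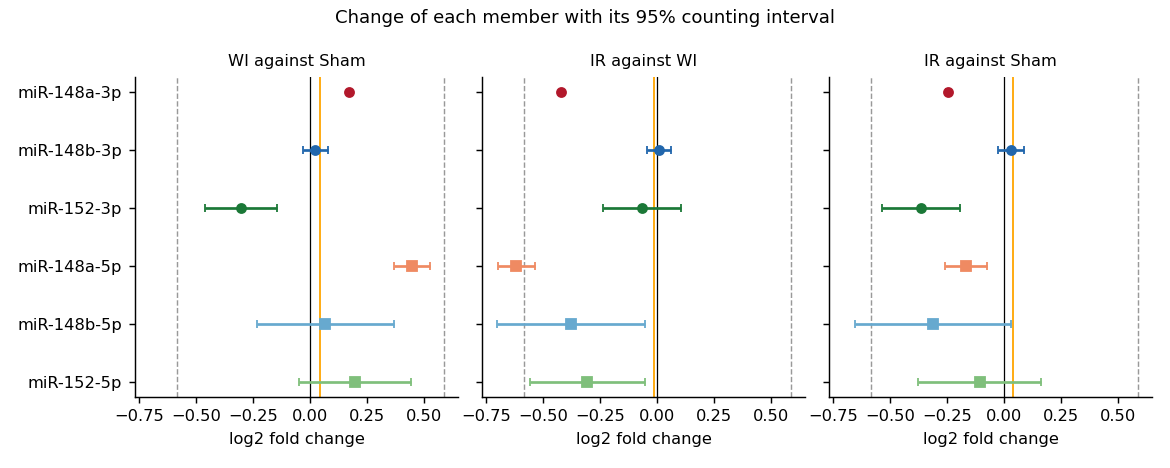
Log2 fold change of each member in the 3 comparisons, with 95% counting intervals, circles for 3p and squares for 5p arms. The dashed lines mark a fold change of 1.5 and the orange line the median of all tested microRNAs. MiR-148a-5p in IR vs WI (-0.62) is the point beyond a dashed line, and miR-148b-3p lies between 0.01 and 0.03 in each panel.

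With TMM scaling, the levels thus had different orders in the members. Both arms of miR-148a were ordered WI, Sham, IR, and each neighbouring pair differed beyond counting error. MiR-152-3p was highest in Sham, and its WI and IR levels did not differ beyond counting error. The 3 levels of miR-148b-3p, and those of both other 5p arms, gave no p under 0.01 in any pair with TMM. Other scalings gave such values, for example 0.00475 for miR-148b-3p in WI vs Sham with library totals (Fisher's exact). With genome-aligned totals in IR vs WI, Fisher's exact p was 3.50e-30 for miR-148b-3p, 7.69e-06 for miR-152-3p, 1.74e-05 for miR-148b-5p and 8.36e-07 for miR-152-5p. The 3 comparisons share libraries, so a single unusual library would enter 2 of them. Every p above compares 2 libraries and leaves out variation between mice. With an assumed coefficient of variation of 0.2, the smallest p of any member in edgeR's exact test was 0.279 in WI vs Sham (miR-148a-5p), 0.137 in IR vs WI (miR-148a-5p) and 0.384 in IR vs Sham (miR-152-3p).

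The size of these changes depended on the scaling, as did the sign for miR-148b-3p in all 3 comparisons, for miR-148b-5p in WI vs Sham and for miR-152-3p in IR vs WI. With the totals of genome-aligned reads the median of all tested microRNAs shifted to 0.20 in WI vs Sham, -0.33 in IR vs WI and -0.11 in IR vs Sham, from 0.05, -0.01 and 0.04 with TMM. Over 5 scalings miR-148a-3p ranged from 0.07 to 0.33 in WI vs Sham and from -0.74 to -0.35 in IR vs WI, and miR-148a-5p from 0.35 to 0.60 and from -0.94 to -0.54. MiR-148b-3p ranged from -0.08 to 0.18 and from -0.32 to 0.08. MiR-152-3p ranged from -0.40 to -0.15 in WI vs Sham, and with genome-aligned totals this difference (-0.15) had p = 0.0724 by Fisher's exact test. A scaling shifts all log2 fold changes of a comparison almost alike, so distances from their median are nearly fixed by construction. They are therefore no test of the scaling. For miR-148a-3p the distance from the median of all tested microRNAs was 0.13 in WI vs Sham and -0.41 in IR vs WI. The corresponding distance of miR-148b-3p in IR vs WI was 0.02, and that of miR-152-3p in WI vs Sham was -0.35.

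**Figure D3:**
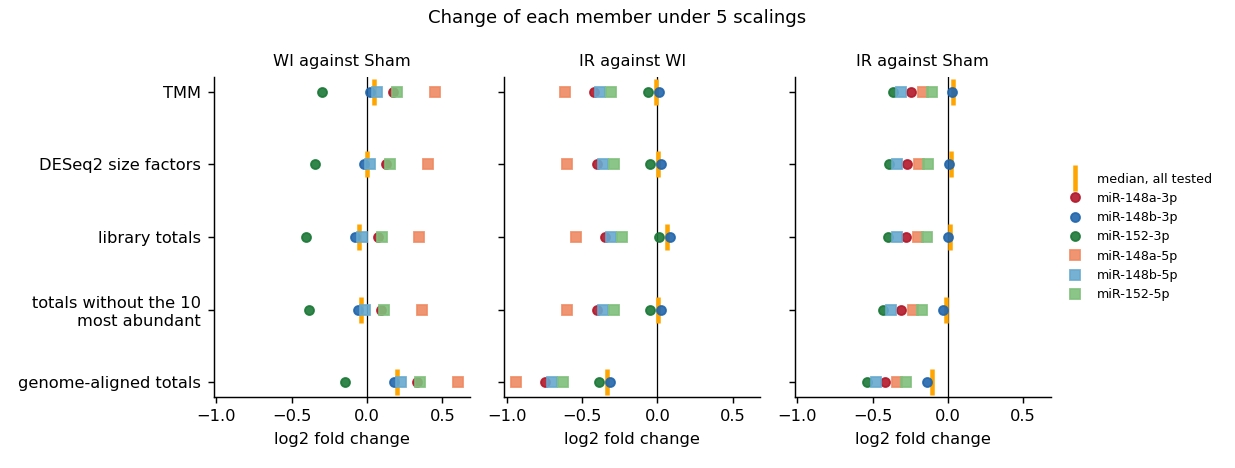
Log2 fold change of each member (points, circles 3p and squares 5p) and the median of all tested microRNAs (orange bars) under 5 scalings of the libraries, in the 3 comparisons. The members shift together with the median by construction, and miR-148a-5p in IR vs WI runs from -0.94 with genome-aligned totals to -0.54 with library totals.

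The make-up of the family was then compared within each library, which does not depend on the scaling between libraries. Each p for a ratio of members or arms below also compares 2 libraries and leaves out variation between mice. No coefficient of variation was assumed for these ratios. Of the 3p reads of the family, miR-148a-3p held 98.16% (95% Wilson interval 98.12 to 98.21) in the Sham library. It held 98.38% (98.34 to 98.42) after ischemia and 97.84% (97.78 to 97.90) after reperfusion. The share of miR-148b-3p was 1.62% (1.58 to 1.67), 1.47% (1.43 to 1.504) and 1.96% (1.91 to 2.02) in the same order. That of miR-152-3p was 0.212% (0.196 to 0.229), 0.153% (0.141 to 0.165) and 0.194% (0.178 to 0.212). The intervals of miR-148b-3p did not overlap between any 2 libraries, and its share was highest in IR. This share depends on miR-148a-3p, which makes up most of the total. Without miR-148a-3p in the total, the share of miR-148b-3p changed by 2.10 percentage points from Sham to WI, a changed sign. From WI to IR it then changed by 0.42 percentage points, no longer past the threshold.

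MiR-148a-3p had 60.4 (Sham), 67.1 (WI) and 49.8 (IR) reads per read of miR-148b-3p, with 95% counting intervals of 58.8 to 62.2, 65.4 to 68.8 and 48.4 to 51.3. From WI to IR this ratio changed by -0.43 on the log2 scale (SE 0.028, Fisher's exact p = 6.92e-52, adjusted over 9 tests of 3p pairs 6.23e-51). From Sham to WI it changed by 0.15 (SE 0.028, adjusted Fisher's exact p = 1.89e-07). Between Sham and IR the change was -0.28 (SE 0.03, adjusted Fisher's exact p = 2.36e-20). The 2 microRNAs with the same seed and 2 differing bases therefore differed in their change in every comparison beyond counting error. Pairs outside the family were not tested, so these values do not show whether such a difference is particular to the family.

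MiR-152-3p also changed relative to both others. MiR-148a-3p had 464, 644 and 504 reads per read of miR-152-3p in the Sham, WI and IR libraries. The change was 0.47 from Sham to WI (adjusted Fisher's exact p = 1.57e-08) and -0.35 from WI to IR (adjusted Fisher's exact p = 8.95e-05). From Sham to IR it was 0.12, with a 95% counting interval from -0.05 to 0.29 (adjusted Fisher's exact p = 0.197). MiR-148b-3p had 7.68, 9.61 and 10.1 reads per read of miR-152-3p, a change of 0.32 from Sham to WI (adjusted Fisher's exact p = 0.000201) and of 0.40 from Sham to IR (adjusted Fisher's exact p = 2.97e-05). From WI to IR it was 0.07 (95% counting interval -0.11 to 0.25, adjusted Fisher's exact p = 0.428).

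Among the 5p arms no such difference passed. MiR-148a-5p had 13.3, 17.4 and 14.7 reads per read of miR-148b-5p in Sham, WI and IR, and 9.10, 10.8 and 8.73 per read of miR-152-5p. The smallest adjusted p of the 9 tests of 5p pairs was 0.108 (Fisher's exact). The counts of miR-148b-5p and miR-152-5p limit these ratios, since the interval for the change of miR-148a-5p against miR-148b-5p from WI to IR ran from -0.57 to 0.10.

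**Figure D4:**
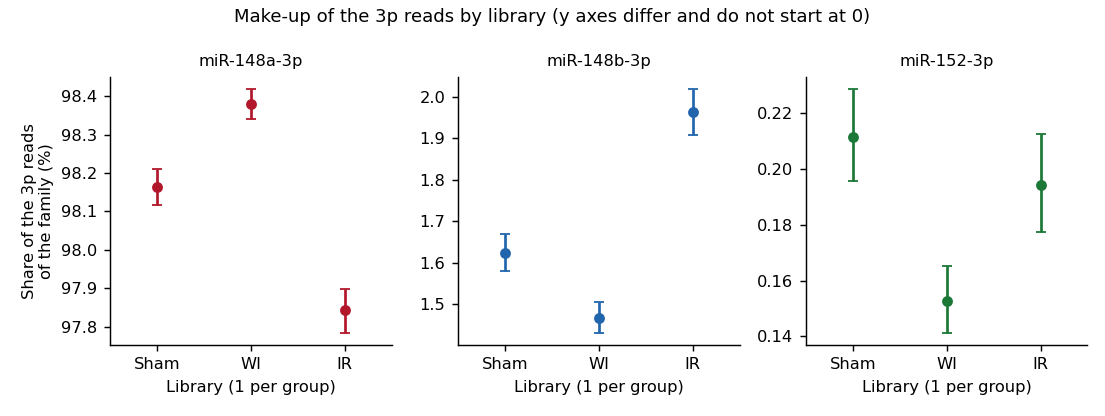
Share of each 3p member in the summed 3p reads of the family (percent) in the Sham, WI and IR library, with 95% Wilson intervals. The 3 vertical axes differ and do not start at 0. The share of miR-148b-3p is 1.47% in WI and 1.96% in IR, while miR-148a-3p stays above 97% throughout.

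The summed level of the seed followed its most abundant member by construction, since miR-148a-3p held 97.84% (IR) to 98.38% (WI) of the 3p reads. The 3p arms together had 76018 (Sham), 85476 (WI) and 64221 (IR) CPM. From WI to IR the sum differed by -21255 CPM, and miR-148a-3p alone differed by -21257 CPM, while miR-148b-3p differed by 6.86 and miR-152-3p by -5.79 CPM. The log2 fold change of the sum was 0.17 in WI vs Sham, -0.41 in IR vs WI and -0.24 in IR vs Sham.

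The arms of each hairpin were compared last, again as ratios within a library. MiR-148a-3p had 141 (95% counting interval 135 to 147), 117 (113 to 121) and 134 (128 to 140) reads per read of miR-148a-5p in the Sham, WI and IR libraries. MiR-148b-3p had 31.1 (26.6 to 36.5), 30.2 (26.2 to 34.7) and 39.5 (33.0 to 47.3) reads per read of its 5p arm. In miR-152 the arms were nearly balanced by comparison, with 2.77 (2.38 to 3.22), 1.96 (1.71 to 2.24) and 2.32 (1.97 to 2.73) reads of the 3p arm per read of the 5p arm. In miR-152 the 5p arm made up 26.5%, 33.8% and 30.2% of the arm reads in the same order, against 0.704%, 0.85% and 0.743% in miR-148a.

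From Sham to WI the ratio of the 3p to the 5p arm changed by -0.28 on the log2 scale in miR-148a (SE 0.04, Fisher's exact p = 4.03e-12, adjusted over 9 tests 3.63e-11) and by -0.50 in miR-152 (SE 0.15, adjusted Fisher's exact p = 0.00231). In both, the share of the 5p arm was higher in the WI library. From WI to IR the ratio changed by 0.20 in miR-148a (SE 0.042, adjusted Fisher's exact p = 1.19e-05) and by 0.24 in miR-152 (SE 0.16, adjusted Fisher's exact p = 0.15). From Sham to IR neither passed (-0.08 in miR-148a, adjusted Fisher's exact p = 0.134, and -0.26 in miR-152, adjusted Fisher's exact p = 0.15). MiR-148b changed by -0.04, 0.39 and 0.34 in the 3 comparisons, with adjusted Fisher's exact p = 0.788, 0.0517 and 0.0938.

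The same ratio was computed for other hairpins. With a threshold of 1.5-fold and p under 0.01, 0 of the 3 family hairpins was called in any comparison. The background was 5.66% of 53 hairpins with at least 100 reads of the minor arm in WI vs Sham, 4.17% of 48 in IR vs WI and 2.17% of 46 in IR vs Sham. In WI vs Sham, 20 of the 53 hairpins had a larger change in size than miR-148a and 5 had a larger change than miR-152. In IR vs WI, 21 of 48 had a larger change than miR-148a.

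**Figure D5:**
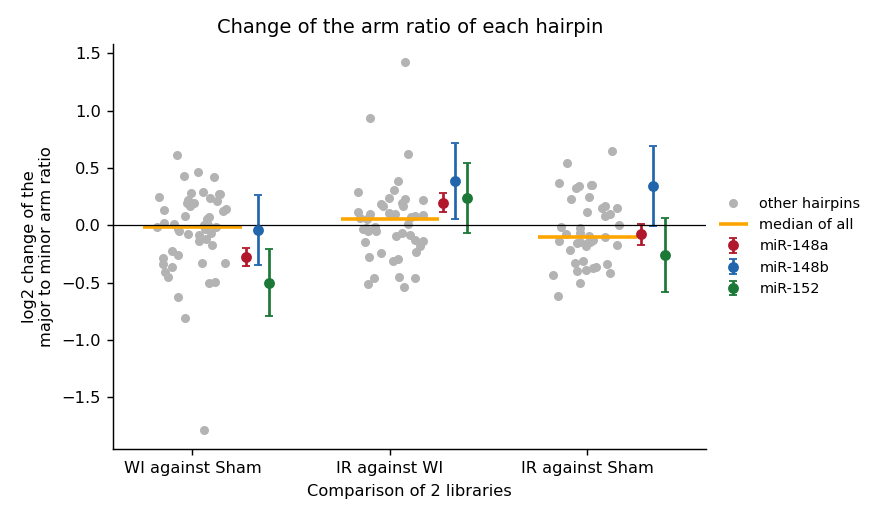
Log2 change of the ratio of the major to the minor arm of each hairpin with at least 100 reads of the minor arm (grey points), its median (orange bars) and the 3 family hairpins with 95% counting intervals, in the 3 comparisons. The family values, such as -0.28 for miR-148a and -0.50 for miR-152 in WI vs Sham, lie within the spread of the other hairpins.

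The microRNAs with the pattern nearest to that of miR-148a were taken from 132 other microRNAs with at least 1000 reads over the 3 libraries. Likeness was the distance between the pairs of log2 fold changes in WI and in IR, each against Sham. Nearest to miR-148a-3p was let-7g-5p (distance 0.02), with 5856 (Sham), 6508 (WI) and 4932 (IR) CPM. MiR-423-5p (0.073) and let-7f-5p (0.088) followed. Nearest to miR-148a-5p were miR-101a-3p (0.12), miR-29b-3p (0.13) and the endothelial miR-126a-5p (0.17). MiR-101a-3p had 3647, 4667 and 3089 CPM. The distances rest on 1 library per group and describe these libraries.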

How the data were processed

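Small RNA libraries of 1 sample each for the Sham, WI and IR group were analysed, with groups given by the titles. The authors deposited a raw count of reads for each mature microRNA. They trimmed adaptors, dropped reads of low quality or unfitting length, aligned the rest to the genome with Bowtie 0.12.7 and counted mature microRNAs with miRDeep2. The methods name mm9 for small RNA and the processing notes of the submitters list mm10. The files hold no coordinates, so the counts could not show which was used.

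Counts were scaled by the TMM factors of edgeR 4.0.16 (R 4.3.3), which were 1.03, 0.961 and 1.01 for Sham, WI and IR. Log2 fold changes used CPM + 0.1, and their SE came from the counts alone. A two-sided Fisher's exact test (scipy 1.17.1) was run for each microRNA read at least once in either library, with Benjamini-Hochberg adjustment over all of them. Calls used the thresholds of the study, more than 1.5-fold with unadjusted p under 0.01. The study took the mapped reads of a sample as its total, while totals of microRNA reads were used here. The calls are not those that the study lists, and the reason was not tested. Ratios between members or arms were tested on the 2 by 2 table of reads. The quasi-likelihood test needs replicates and could not be fitted. Intervals cover counting error only, and PCR copies were counted as reads. The scripts for calls were tested on simulated data. Named microRNAs were the members, their neighbours in rank and pattern, the 2 most abundant in Sham where a value needed scale, and cell markers. The members, lists and tests were chosen with earlier results of these data known.

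Other settings changed the scaling (size factors from DESeq2 1.42.0, plain totals, totals that omit the 10 most abundant, or genome-aligned totals as the study gives them), pseudocount, thresholds, read minimum and error model.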

Additional observations from a re-analysis of the deposited data

How the results depend on the processing

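Of 162 recomputed values of the members, 141 kept direction and call, but many could not have changed. Other fold thresholds and assumed coefficients of variation leave the log2 fold change as it is. A fold threshold of 2 and the assumed coefficients of variation could only remove calls, and just 1 member value was called at first. A value that was not called counts as kept even where its p rose past 0.01, as for miR-148a-3p in WI vs Sham. The call of miR-148a-5p in IR vs WI was lost with library totals (-0.54), at a fold threshold of 2 (-0.62) and with an assumed coefficient of variation of 0.2 or 0.4 (-0.62). It was called in WI vs Sham with genome-aligned totals (0.60) or a fold threshold of 1.2 (0.45). Genome-aligned totals added calls in IR vs WI for miR-148a-3p (-0.74), miR-148b-5p (-0.70) and miR-152-5p (-0.63). A fold threshold of 1.2 added miR-148a-3p in IR vs WI (-0.42) and miR-152-3p in WI vs Sham (-0.30) and IR vs Sham (-0.37).

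Signs changed only for values that had not been called. MiR-148b-3p became -0.022, -0.078 and -0.060 in WI vs Sham (DESeq2 size factors, library totals, 10 most abundant left out), -0.32 (genome-aligned) in IR vs WI, and -0.034 (without the 10 most abundant) and -0.14 (genome-aligned) in IR vs Sham. MiR-148b-5p became -0.034 and -0.016 (library totals, 10 most abundant left out) in WI vs Sham, and miR-152-3p became 0.0074 (library totals) in IR vs WI.

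For shares of family reads, counting both arms changed the difference of miR-148a-3p from Sham to WI to 0.073 percentage points, no longer past the threshold. Without miR-148a-3p in the total, miR-148b-3p changed by 2.10 percentage points from Sham to WI, a changed sign, and by 0.42 from WI to IR, no longer past the threshold. MiR-152-3p then changed by -0.42 from WI to IR, a changed sign, and by -2.52 from Sham to IR, now past the threshold.

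The calls among all microRNAs were 15 in WI vs Sham, 73 in IR vs WI and 55 in IR vs Sham. Genome-aligned totals gave 25 and 111 in the first 2, an assumed coefficient of variation of 0.2 gave 4, 33 and 24, and 0.4 gave 1, 6 and 10. A fold threshold of 2 gave 9 and 35 in WI and IR vs Sham, and 1.2 gave 48 in WI vs Sham, where a minimum of 100 reads gave 9. Higher and lower calls numbered 11 and 4 in WI vs Sham, but 10 and 6 (DESeq2), 7 and 10 (library totals), 8 and 9 (10 most abundant left out) and 23 and 2 (genome-aligned). With genome-aligned totals they were 38 and 73 in IR vs WI (49 and 24 with TMM) and 35 and 28 in IR vs Sham (44 and 11). Hairpins with a changed arm ratio numbered 3, 2 and 1, but 5, 7 and 4 with at least 10 reads of the minor arm and 0 in all 3 with at least 1000, where fewer hairpins were tested.

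No paired analysis was possible because each group has 1 library, and leaving out a replicate was not run for the same reason. The depth of 122 to 324 reads limits what can be seen for miR-148b-5p and miR-152-5p.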
